A study of Mus musculus with 12 samples.

Results

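The genes described here set how a T cell passes from rest into division: the D cyclins Ccnd1, Ccnd2 and Ccnd3, their partner kinases Cdk4 and Cdk6, the kinase inhibitors Cdkn1a, Cdkn1b, Cdkn2c and Cdkn2d, and the growth regulator Myc. They were taken by gene symbol from the platform's annotation of the deposited array table, and where several transcript clusters carried the same symbol the brightest over the 12 arrays was used. Of the 10 genes, 9 had a transcript cluster of their own among 19938 measured genes. Cdkn1a was annotated only on a transcript cluster that also carries the symbol 4930567H12Rik. That cluster is called the shared row below, its signal cannot be divided between both genes, and it is left out of the counts of members.

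The cells were mouse CD8+CD28low regulatory T lymphocytes of strain C57Bl/6, from wild-type mice (WT) and from mice labelled AIRE ko (KO), which lack the thymic regulator Aire. Native cells were measured as freshly isolated. Activated cells had been in culture for 96 h with allogenic APC (antigen-presenting cells of another strain) and an antibody to CD3, the signalling part of the T cell receptor. Each of the 4 groups (native WT, native KO, activated WT, activated KO) held 3 arrays that the titles call biological replicates. The sources used here do not give how many animals stand behind an array, how the knockout was built or whether the stimulating cells were removed before RNA extraction, so p-values measure the spread between these arrays.

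D-type cyclins are made in response to growth signals and bind CDK4 or CDK6. The active kinases phosphorylate the retinoblastoma protein RB, which releases E2F transcription factors, and E2F in turn switches on cyclin E and the genes of DNA replication. INK4 inhibitors, among them p18 (Cdkn2c) and p19 (Cdkn2d), bind CDK4 and CDK6 directly, whereas the CIP/KIP inhibitors p21 (Cdkn1a) and p27 (Cdkn1b) bind cyclin-kinase complexes and restrain CDK2. In lymphocytes p27 is known as a brake of resting cells, cyclins D2 and D3 as the main D cyclins, and MYC as a driver of cell growth after antigen receptor signals.

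Levels are log2 values, so a difference of 1 means a doubling of signal, and levels are compared only within a gene. Background on each array is the 95th percentile of 1015 olfactory receptor genes on that array, and it lay between 6.13 and 7.31. The highest of these values belonged to activated KO array 3, which stood apart from the other arrays on the second principal component (-63.79, against -6.35 to 28.71) and had the narrowest interquartile range (2.19, against 2.45 to 2.89). Aire lay at background in all groups (5.55 to 5.92 over the 6 WT arrays and 5.61 to 5.89 over the 6 KO arrays), so it gave no check of the genotype labels. Xist, expressed from an inactive X chromosome, lay at 5.26 and 4.98 on KO array 1 of the native and the activated state and between 9.34 and 11.47 on the other 10 arrays. WT array 1 read 10.70 and 10.83 in these states. At number 1 a difference tied to sex thus cannot be told apart from a difference of genotype. A fit without both of these KO arrays is among the alternatives below. The CD8 T cell markers Cd8a, Cd8b1, Cd3e, Cd3d, Cd3g, Cd2 and Cd5 were above background in all groups, Cd4 and Cd40lg of the 3 CD4 T cell markers were at background in all groups, and Cd28 transcript lay between 9.98 and 11.97. The third CD4 marker, Zbtb7b, was at background in native cells and rose on activation by at least 1.41 in WT and 1.06 in KO cells. All 12 macrophage and dendritic cell markers were at background in activated WT cells, and all but Itgax in activated KO cells. In native cells of both genotypes Lyz2 and Itgax were above background. Of 6 B cell markers, Cd79b was above background in all groups and Cd79a in native KO cells. The part of other cells, the stimulating cells among them, in the members' values was not tested.

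The promoters of the 3 members that rose on activation, Cdk4, Cdk6 and Cdkn2c, are shown with that of Cdkn1b, whose level lay lower in activated cells. They are RefSeq sequences of build GRCm38.p6, 5′ to 3′, from 250 bases before to 50 bases after an annotated start, and capitals mark the E-box CACGTG, a sequence that MYC and related factors can bind. The Cdk4 window is chr10:127063285-127063584 on the plus strand, Cdk6 is chr5:3343643-3343942 on the plus strand, Cdkn2c is chr4:109665323-109665622 on the minus strand, and Cdkn1b is chr6:134920151-134920450 on the plus strand.

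Cdk4: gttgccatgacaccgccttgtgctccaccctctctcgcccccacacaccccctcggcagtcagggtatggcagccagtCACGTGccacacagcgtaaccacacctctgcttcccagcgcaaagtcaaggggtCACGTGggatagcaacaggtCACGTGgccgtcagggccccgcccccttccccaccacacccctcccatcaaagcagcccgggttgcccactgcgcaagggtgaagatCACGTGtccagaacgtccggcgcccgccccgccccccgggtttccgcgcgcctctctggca

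Cdk6: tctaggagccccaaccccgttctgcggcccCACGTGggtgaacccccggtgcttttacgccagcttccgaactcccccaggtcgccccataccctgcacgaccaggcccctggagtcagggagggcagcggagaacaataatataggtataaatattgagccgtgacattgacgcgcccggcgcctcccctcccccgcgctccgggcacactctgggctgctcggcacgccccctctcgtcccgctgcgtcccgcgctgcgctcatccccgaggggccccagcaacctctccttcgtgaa

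Cdkn2c: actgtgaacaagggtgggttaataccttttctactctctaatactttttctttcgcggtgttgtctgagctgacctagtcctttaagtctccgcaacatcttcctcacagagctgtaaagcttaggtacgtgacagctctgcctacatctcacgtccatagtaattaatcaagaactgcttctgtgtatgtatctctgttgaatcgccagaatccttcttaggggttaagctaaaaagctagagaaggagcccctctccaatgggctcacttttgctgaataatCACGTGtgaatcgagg

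Cdkn1b: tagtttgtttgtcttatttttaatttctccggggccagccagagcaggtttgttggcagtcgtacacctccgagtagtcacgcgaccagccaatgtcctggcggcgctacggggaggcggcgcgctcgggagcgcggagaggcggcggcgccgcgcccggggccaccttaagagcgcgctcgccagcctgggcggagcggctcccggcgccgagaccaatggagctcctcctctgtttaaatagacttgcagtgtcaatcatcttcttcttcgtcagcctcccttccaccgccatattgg

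The Cdk4 window held 4 E-boxes, which begin 172, 118, 98 and 11 bases before the start. Cdk6 held 1 that begins 220 bases before the start, and Cdkn2c held 1 that begins 34 bases after it. Both are in windows of inner starts, and the whole Cdk6 window lies inside the gene, which begins at 3341004. The other Cdkn2c window (chr4:109666707-109667006), which is not printed above, and the windows of Cdkn1b, Cdkn2d, Cdkn1a and Ccnd3 held none. Of 32851 promoter windows in the table, 7.15% held an E-box. Searches of the same windows, on both strands, for the E2F sites TTTCCCGC, TTTGGCGC, TTTCGCGC and TTTGCCGC (2.26% of all windows) and for the STAT site TTCNNNGAA (8.3%) gave no match among the 7 members with a window. The FOXO site GTAAACA (3.65%) matched once, 243 bases before a start of Ccnd3. These are matches of letters in short windows, and no binding was measured. Ccnd1, Ccnd2 and Myc had no window in the table.

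The first question was how the G1 genes differed between native and activated cells. In WT cells 3 of the 9 members with their own row rose on activation and none fell, where limma, with Benjamini-Hochberg adjustment over all genes, called 9.72% of all genes higher and 10.9% lower. In KO cells the same 3 members, Cdk4, Cdk6 and Cdkn2c, rose and none fell, against 8.72% of all genes called higher and 11.4% called lower. The median difference of the 9 members was 0.33 in WT and 0.06 in KO cells, beside -0.02 and 0.02 over all genes. These medians moved with single arrays: the WT median was 0.12 without activated array 3 and 0.51 without activated array 2, and the KO median was 0.20 without activated array 3, -0.03 without activated array 2 and 0.19 without native array 1. With quantile normalization the share of all calls that were higher moved from 47.2% to 58.6% in WT and from 43.5% to 55.3% in KO cells, and the same count of 3 members was called. In KO cells the count was 3 without activated KO array 3 as well, and the WT count was not read without that array.

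**Figure D1:**
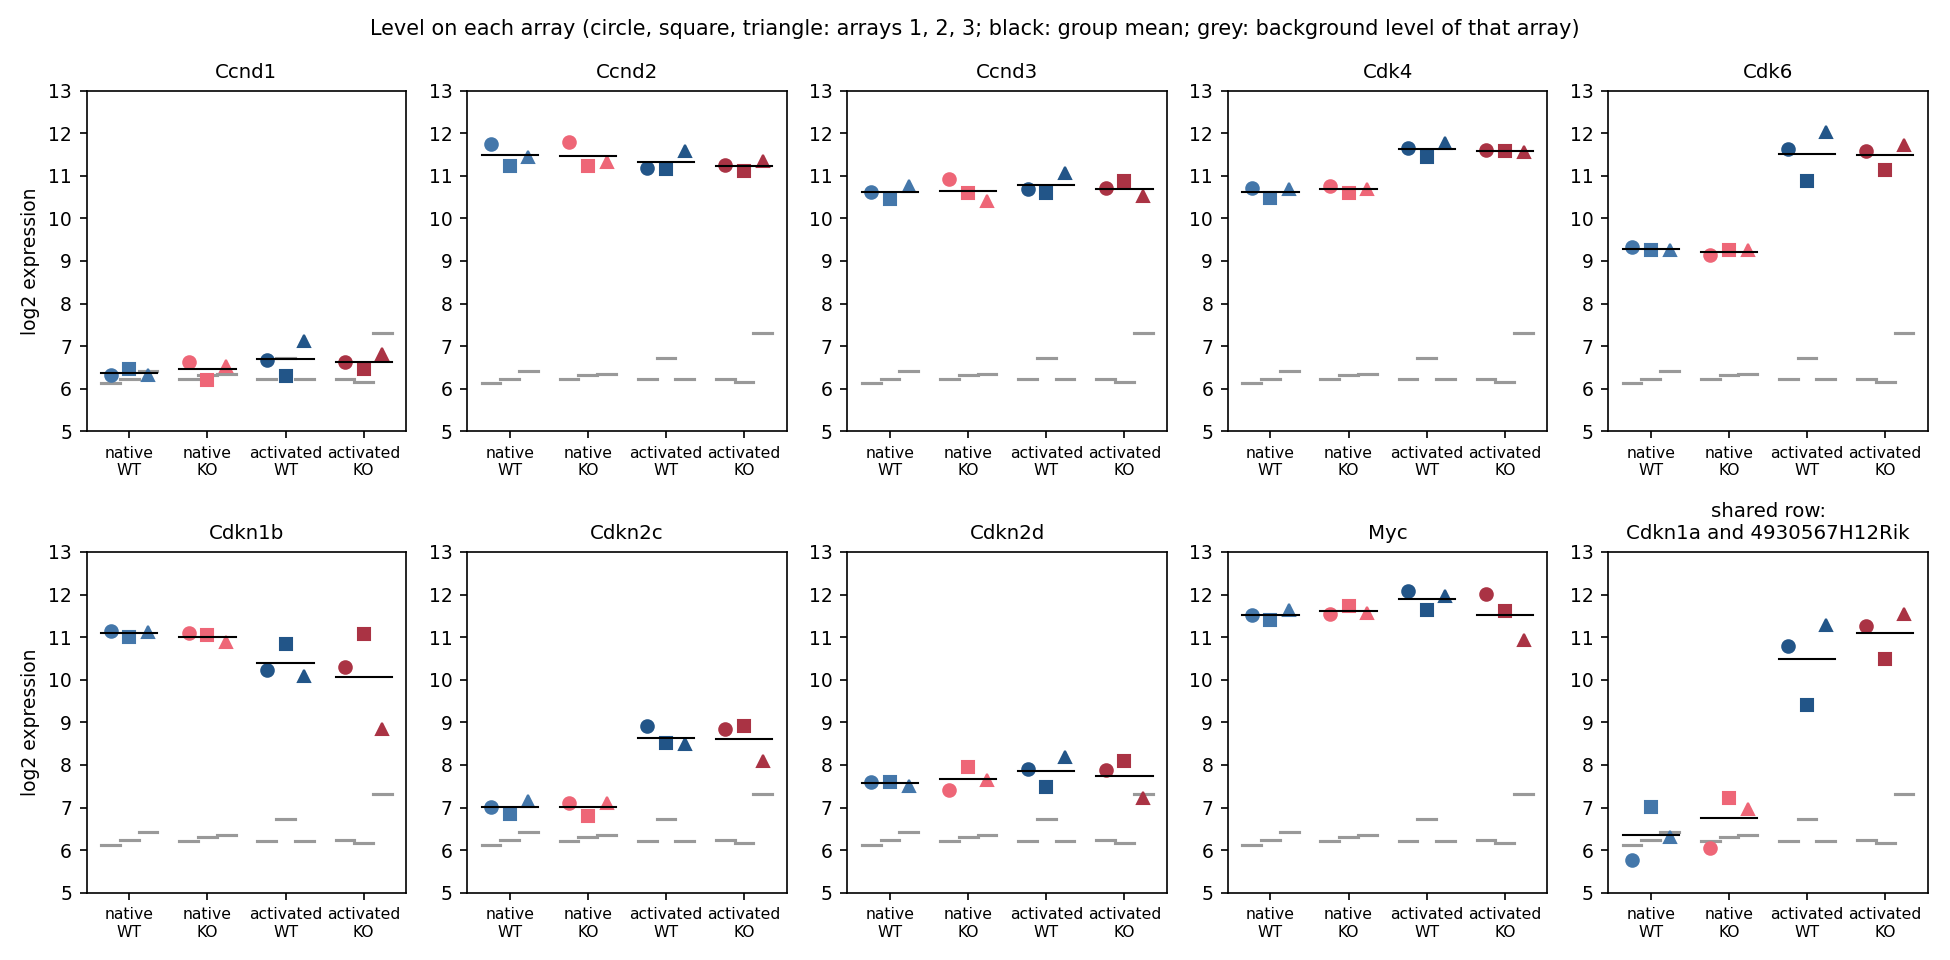
Log2 expression of the 9 members and of the shared row on each of the 12 arrays (circle, square and triangle for arrays 1, 2 and 3; black lines are group means, grey dashes each array's background level). Cdk4, Cdk6, Cdkn2c and the shared row lie higher on every activated array than on every native array, while the native and activated arrays of the D cyclins and Cdkn2d overlap.

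Cdk6, which lies on chromosome 5 at 3341004 to 3531008 (GRCm38.p6), changed most among the members with their own row. Its log2 level was 9.33, 9.25 and 9.26 on native WT arrays 1, 2 and 3 and 9.13, 9.26 and 9.26 on native KO arrays. The activated WT arrays read 11.64, 10.87 and 12.02, and the activated KO arrays read 11.59, 11.15 and 11.73. Every activated array thus lay above every native array, and array 2 was the lowest of the activated arrays in both genotypes. The rise was 2.23 ± 0.24 in WT (SE of the fit, n = 3 per group; 4.70-fold; limma adjusted p = 5.1e-05) and 2.27 ± 0.24 in KO cells (4.83-fold; adjusted p = 5.18e-05).

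Cdk4, the other D cyclin kinase and a long-known MYC target, lies on chromosome 10 at 127063535 to 127067288. Its level was 10.72, 10.47 and 10.69 on the native WT arrays, 10.76, 10.61 and 10.69 on the native KO arrays, 11.66, 11.43 and 11.76 on the activated WT arrays and 11.60, 11.59 and 11.56 on the activated KO arrays. Native and activated arrays did not overlap, and the activated KO arrays lay close together. The rise was 0.99 ± 0.11 in WT (1.99-fold; limma adjusted p = 7.97e-05) and 0.90 ± 0.11 in KO cells (1.87-fold; adjusted p = 0.000182).

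The D cyclins did not pass the test in either genotype. Ccnd2, on chromosome 6 at 127125162 to 127152188, was 11.75, 11.24 and 11.44 in native WT, 11.79, 11.23 and 11.33 in native KO, 11.19, 11.17 and 11.58 in activated WT and 11.24, 11.12 and 11.35 in activated KO cells. All 4 groups overlapped, with differences of -0.16 ± 0.18 in WT (95% confidence interval -0.55 to 0.23) and -0.21 ± 0.18 in KO cells (-0.61 to 0.18).

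Ccnd3, on chromosome 17 at 47505051 to 47599689, was 10.62, 10.46 and 10.76 in native WT, 10.91, 10.60 and 10.40 in native KO, 10.68, 10.60 and 11.06 in activated WT and 10.71, 10.87 and 10.52 in activated KO cells. Its groups overlapped too, with differences of 0.17 ± 0.17 in WT (-0.19 to 0.53) and 0.06 ± 0.17 in KO cells (-0.31 to 0.42). For both cyclins the intervals lie within a range of -0.61 to 0.53, and the rise of Cdk6 lies outside it.

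Ccnd1, the D cyclin of many adherent and epithelial cells, lies on chromosome 7 at 144929931 to 144939831. Its level stayed near background: 6.32, 6.47 and 6.33 in native WT, 6.64, 6.20 and 6.54 in native KO, 6.67, 6.31 and 7.12 in activated WT and 6.64, 6.46 and 6.81 in activated KO cells. In each group 1 of the 3 arrays lay at or under its own background level. The differences of 0.33 ± 0.19 in WT and 0.18 ± 0.19 in KO cells did not pass, and so close to background they give no size. With array weights Ccnd1 was called in WT cells (0.46, limma adjusted p = 0.0324).

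**Figure D2:**
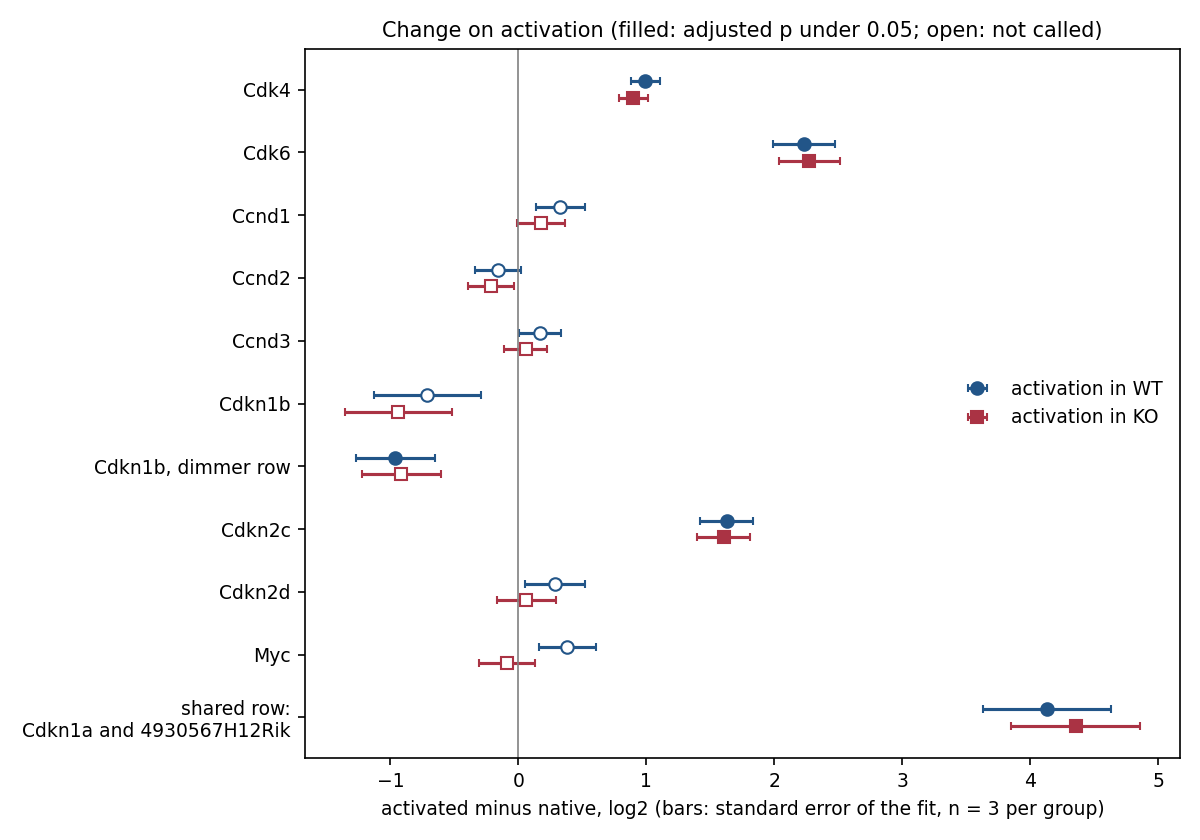
Activated minus native log2 difference for each member in WT (circles) and KO cells (squares), with the standard error of the fit as bars; filled symbols passed an adjusted p of 0.05. Cdk4, Cdk6, Cdkn2c and the shared row lie well above 0 in both genotypes, and the WT and KO symbols of these rows lie within each other's error bars.

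Among the INK4 inhibitors Cdkn2c rose and Cdkn2d did not pass. Cdkn2c, on chromosome 4 at 109660876 to 109666756, was 7.02, 6.86 and 7.15 on native WT arrays, 7.11, 6.81 and 7.11 on native KO arrays, 8.91, 8.51 and 8.49 on activated WT arrays and 8.84, 8.92 and 8.09 on activated KO arrays. The native and activated arrays did not overlap, and activated KO array 3 was the lowest activated array. The rise was 1.63 ± 0.21 in WT (3.09-fold; limma adjusted p = 0.000185) and 1.60 ± 0.21 in KO cells (3.04-fold; adjusted p = 0.000224).

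Cdkn2d, on chromosome 9 at 21288459 to 21291421, was 7.59, 7.61 and 7.52 in native WT, 7.40, 7.96 and 7.66 in native KO, 7.90, 7.49 and 8.19 in activated WT and 7.88, 8.10 and 7.23 in activated KO cells, where array 3 lay under its background level. The groups overlapped, with differences of 0.29 ± 0.23 in WT and 0.06 ± 0.23 in KO cells. Whether the responses of both INK4 genes differ was not tested.

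The CIP/KIP inhibitor Cdkn1b, on chromosome 6 at 134920401 to 134925525, lay lower in activated cells. The brighter of its 2 rows did not pass in the fit of all groups. On that row it was 11.15, 10.999 and 11.13 in native WT, 11.10, 11.04 and 10.89 in native KO, 10.22, 10.84 and 10.09 in activated WT and 10.30, 11.07 and 8.84 in activated KO cells. The WT states did not overlap. In KO cells activated array 2 lay within the native range while activated array 3 was more than 2 log2 units below every native KO array. The differences were -0.71 ± 0.42 in WT (limma adjusted p = 0.303) and -0.94 ± 0.42 in KO cells (adjusted p = 0.155), and in KO cells -0.32 without activated array 3 and -1.44 without activated array 2, where Cdkn1b was called. With arrays weighted by their scatter, which gave activated KO array 3 a weight of 0.0959, it was called in both genotypes, at -0.85 in WT and -0.56 in KO cells. The main fit shared 1 spread over all groups, and the SD of this row was 0.40 in activated WT but 1.13 in activated KO cells. A fit of only the 2 groups compared called the WT difference (-0.71 ± 0.19, limma adjusted p = 0.0282). It did not call the KO difference (-0.94 ± 0.49, adjusted p = 0.308).

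The dimmer Cdkn1b row gave a like picture: 9.22, 9.37 and 9.46 in native WT, 9.34, 9.39 and 8.99 in native KO, 8.19, 8.72 and 8.25 in activated WT and 8.54, 8.95 and 7.48 in activated KO cells. Here the states did not overlap in either genotype. In a fit of all 35556 rows the differences were -0.96 ± 0.31 in WT (limma adjusted p = 0.0467) and -0.92 ± 0.31 in KO cells (adjusted p = 0.0586). The WT call was lost without any single WT array except activated array 2, at adjusted p from 0.0875 to 0.141, and also with quantile normalization (0.0664) or array median centring (0.0765). In KO cells the difference was -0.49 without activated array 3, and it was called without activated array 2 (-1.23, adjusted p = 0.0119) and with array weights (-0.65, adjusted p = 0.0139).

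The shared row of Cdkn1a and 4930567H12Rik showed the widest gap between the states. It was 5.77, 7.01 and 6.30 on native WT arrays, 6.04, 7.23 and 6.97 on native KO arrays, 10.79, 9.41 and 11.27 on activated WT arrays and 11.26, 10.50 and 11.55 on activated KO arrays. Of the native arrays, 2 WT and 1 KO lay at or under background, and array 2 was the highest of each native group and the lowest of each activated group. With native arrays under background set to their background level, the rise was at least 15.7-fold in WT and at least 19.6-fold in KO cells (limma adjusted p = 0.000206 and 0.000182 in the fit of all rows). Cdkn1a itself lies on chromosome 17 at 29090979 to 29100722.

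Myc, on chromosome 15 at 61985341 to 61990361, was already high in native cells, where the WT arrays read 11.52, 11.40 and 11.63 and the KO arrays 11.54, 11.73 and 11.57. In activated cells the WT arrays read 12.09, 11.64 and 11.96, while the KO arrays read 12.004, 11.62 and 10.94. The WT states did not overlap, though native array 3 and activated array 2 nearly touched. In KO cells activated array 3 was the lowest of all 12. The difference was 0.38 ± 0.22 in WT (limma adjusted p = 0.293) and -0.09 ± 0.22 in KO cells (adjusted p = 0.856). With array weights Myc was called higher in WT (0.48, adjusted p = 0.0134) and lay at 0.24 in KO cells, and without activated KO array 3 it lay at 0.20 there.

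In 4 of the 9 members the activated arrays stood in the same order in WT and KO cells, and in the other 5 (Ccnd3, Cdk4, Cdkn2c, Cdkn2d and Myc) they did not. The share of all genes with the same order was not counted, so this count has nothing to be read against. Over all genes the deviations of same-numbered activated arrays correlated at 0.694, -0.0166 and -0.013 for numbers 1, 2 and 3. Cdk6, Ccnd1 and Ccnd2 stood in the order array 2, array 1, array 3 from low to high in both activated groups, though Ccnd1 lay under background on WT array 2 and KO array 3. The shared row had that order too, and Cdkn1b stood in the order array 3, array 1, array 2 in both. Array 2 thus had the least Cdk6 and the most Cdkn1b of each genotype. The descriptions give the WT and KO arrays of a number the same experiment number. On these arrays the mean of 11 proliferation markers was 10.81, 10.42 and 10.63 in activated WT and 10.69, 10.65 and 10.36 in activated KO cells, against 7.32 to 7.83 in native cells. The mean of 7 CD8 T cell markers was 11.61, 11.89 and 11.49 in activated WT and 11.43, 11.84 and 10.68 in activated KO cells, so its order of arrays was that of Cdkn1b. The part of array quality, of the culture and of the share of T cells in these values was not tested, and in bulk samples fewer cells of a type and less RNA per cell cannot be told apart.

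**Figure D3:**
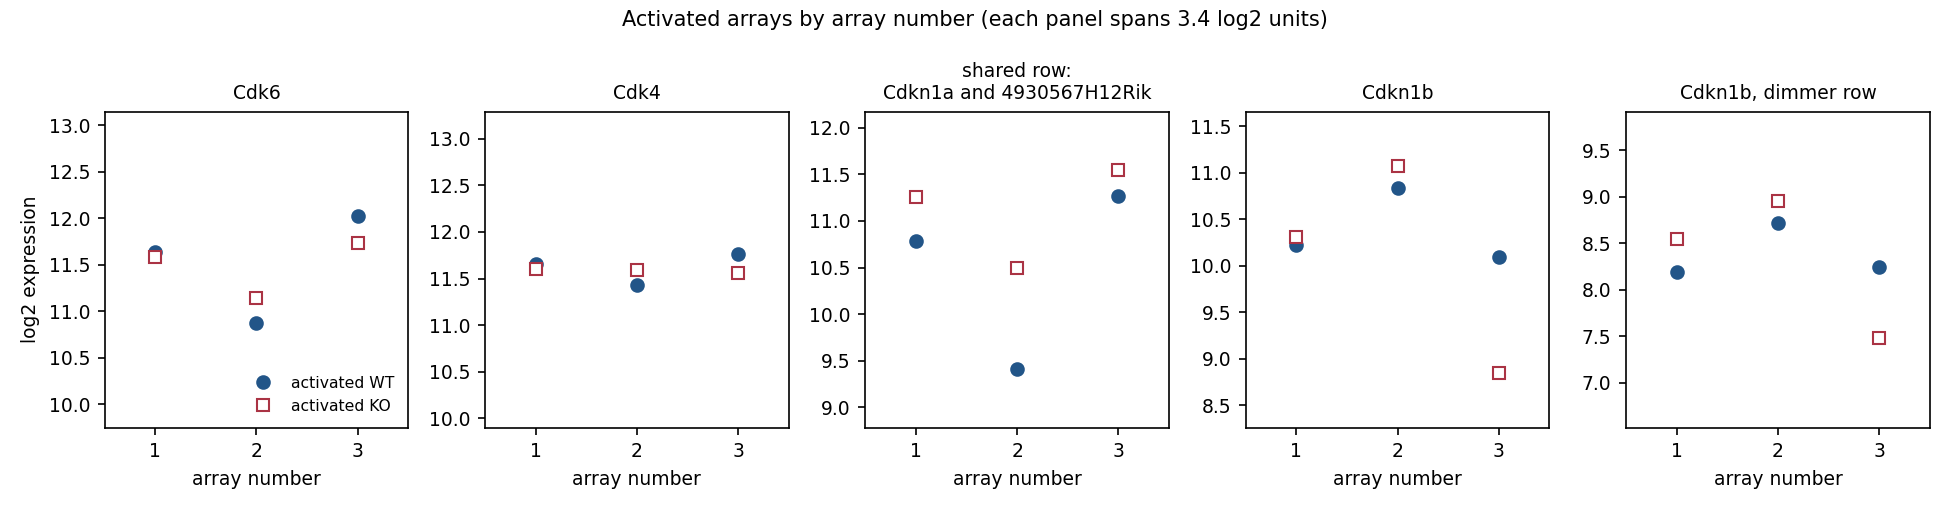
Log2 expression on the activated arrays 1, 2 and 3 (horizontal axis) of WT (filled circles) and KO cells (open squares) for Cdk6, Cdk4, the shared row and both Cdkn1b rows, each panel spanning the same height. Cdk6 and the shared row are lowest and both Cdkn1b rows highest on array 2 of either genotype, and Cdk4 varies little.

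The next comparison set KO against WT cells within each state. No member was called in native cells, where 0% of all genes passed (limma, 0 of 19938, with 131 at an unadjusted p under 0.05 and none of them a member). None was called in activated cells either, where again 0% passed (0 genes, with 87 at an unadjusted p under 0.05, none a member). In native cells all differences of members were small: the widest were 0.10 ± 0.23 for Cdkn2d and 0.10 ± 0.22 for Myc, and the narrowest interval was that of Cdk4, 0.06 with a 95% confidence interval of -0.19 to 0.31. Cdk6 differed by -0.06 (-0.59 to 0.46) and Cdkn2c by 0.00 (-0.45 to 0.46). For Cdk4 a genotype difference as large as its rise on activation lies outside the interval, and for Cdk6 and Cdkn2c likewise. Neutrophil markers, of which none was called between the genotypes, had higher values on each native KO array than on the WT array of the same number: the mean of 10 markers on arrays 1, 2 and 3 ran 8.61, 6.18 and 8.13 for KO but 7.0016, 6.01 and 5.49 for WT, and its part in the native values was not tested. The mean of 6 NK cell markers was higher in KO at each number too, with native values of 8.71, 7.91 and 8.25 against 8.03, 7.49 and 7.51, and activated values of 7.88, 7.40 and 8.28 against 7.67, 6.95 and 7.91. None of the 6 was called, and their part in the genotype values was not tested.

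In activated cells all 9 members had values below 0 for KO minus WT, with a median of -0.08 beside -0.01 over all genes, of which 52.3% were not above 0. That direction rested on single arrays: without activated WT array 3, 6 of the 9 lay above 0 (median 0.04), and without activated KO array 3, 4 did (median -0.02). The 7 CD8 T cell markers all lay below 0 as well, with a median of -0.38 and none called, and their part in the members' values was not tested. Most sizes were within the error: -0.03 ± 0.11 for Cdk4, -0.02 ± 0.24 for Cdk6, -0.02 ± 0.21 for Cdkn2c, -0.08 ± 0.18 for Ccnd2 and -0.08 ± 0.17 for Ccnd3. The widest were Myc at -0.38 ± 0.22 (95% confidence interval -0.86 to 0.11) and Cdkn1b at -0.31 ± 0.42 (-1.22 to 0.60). For Myc the KO array was the lower at each of the 3 numbers. Both values moved with activated KO array 3, without which Myc differed by -0.08 and Cdkn1b by 0.31. The shared row lay on the other side, with KO above WT by 0.61 ± 0.50 in activated and 0.39 ± 0.50 in native cells and higher in KO at all 3 numbers of each state, though neither difference passed (limma adjusted p = 1 for both) and the groups overlapped.

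**Figure D4:**
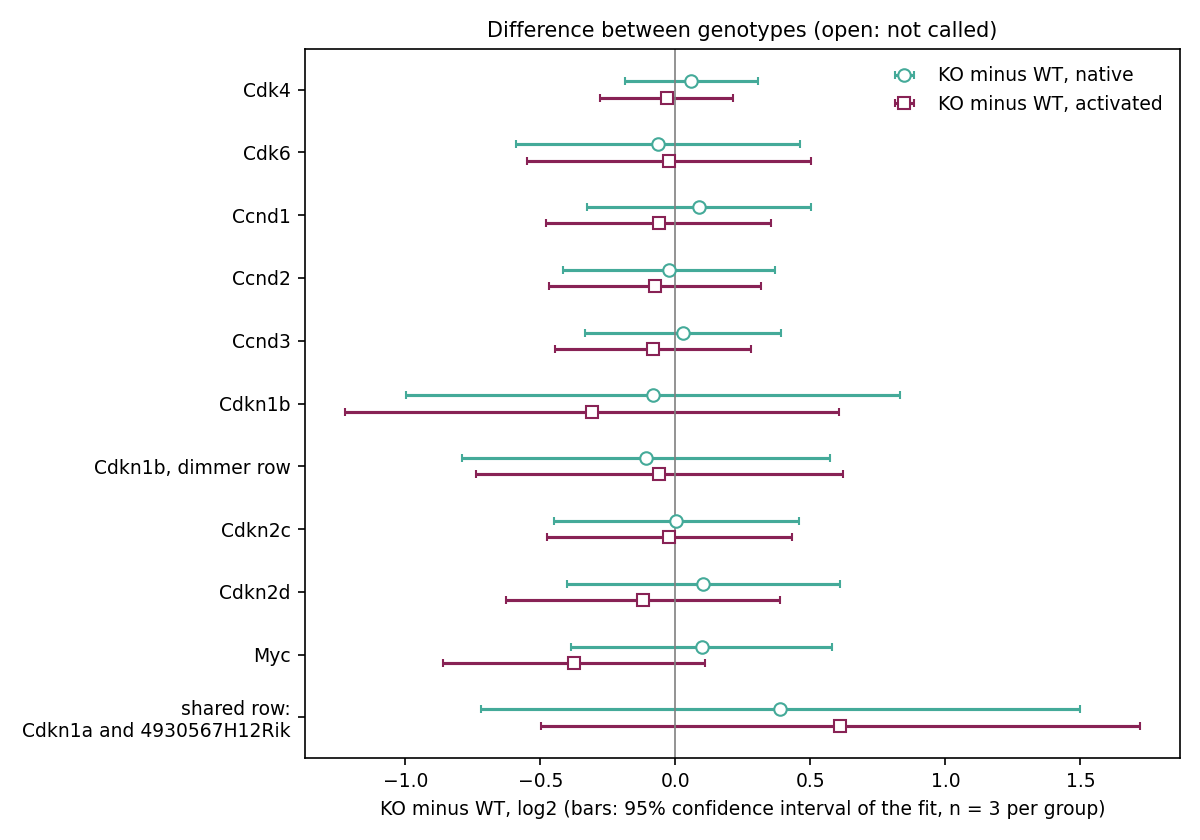
KO minus WT log2 difference for each member in native (circles) and activated cells (squares), with 95% confidence intervals of the fit as bars. Every interval includes 0; that of Cdk4 is the narrowest and that of the shared row the widest.

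Whether the response to activation itself differed by genotype was tested as the interaction, for which 0% of genes passed (limma, 0 of 19938, with 86 at an unadjusted p under 0.05 and no member among them). The interaction was -0.09 ± 0.16 for Cdk4 (95% confidence interval -0.44 to 0.26), 0.04 ± 0.34 for Cdk6 (-0.70 to 0.78) and -0.03 ± 0.29 for Cdkn2c (-0.67 to 0.62). Their rises of 0.99, 2.23 and 1.63 in WT cells are each larger than the widest bound of these intervals. The largest interaction was that of Myc, -0.47 ± 0.31 (-1.16 to 0.21), which was -0.18 without activated KO array 3.

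The genes around these regulators were described from lists of textbook members, whose counts are to be read beside 9.72% of all genes called higher and 10.9% lower in WT, and 8.72% and 11.4% in KO cells. Of 9 later G1 and S phase cyclins, kinases and activators, 7 rose in WT and 7 in KO cells, with a median of 1.45 in WT beside -0.02 over all genes. Ccna2, cyclin A of S phase, rose by 3.56 ± 0.18 in WT and 3.27 ± 0.18 in KO cells (limma adjusted p = 1.37e-07 in WT), Cdk1 by 3.53 and 3.02, Ccne1, the cyclin E that follows cyclin D, by 1.92 and 1.84, and its kinase Cdk2 by 1.66 and 1.68. Of 18 RB and E2F family genes 10 rose and 2 fell in WT cells, and 9 rose and 1 fell in KO cells. E2f8 rose by 3.17 and E2f3 by 2.33 in WT, E2f7 by at least 1.92 from a native level at background, and Lin52, a subunit of a repressor complex of RB relatives, fell by 0.59.

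E2F target genes rose in 16 of 19 cases in both genotypes (median 1.55 in WT and 1.60 in KO cells). Tk1, thymidine kinase, rose by 3.41 and Rrm2, a ribonucleotide reductase subunit, by 3.34 in WT. All 11 proliferation markers rose in both, with a median of 3.27 in WT and 2.86 in KO cells, led by the mitotic checkpoint kinase Bub1 at 4.23 in WT. MYC target genes rose in 5 of 20 cases in each genotype, with a median of 0.22 in WT and 0.16 in KO cells beside -0.02 and 0.02 over all genes, and the largest rise was that of Ldha, lactate dehydrogenase, at 1.27. Of 11 MYC partners and antagonists, 2 rose and 1 fell in each genotype: Mycn, a relative of Myc, rose by at least 1.09 and Mxd3 by at least 1.02 from native WT levels at background, and the antagonist Mnt fell by 0.46 in WT.

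Of 4 other CDK inhibitors, Cdkn3, a phosphatase of CDKs that peaks in dividing cells, rose by 2.88 in WT and 2.64 in KO cells, and Cdkn1c, Cdkn2a and Cdkn2b did not pass. Among 16 genes that set the turnover of G1 regulators 7 rose and 4 fell in WT. Cks1b and Skp2 belong to the ubiquitin ligase that removes p27, and Cks1b rose by 3.13 in WT and 3.03 in KO cells. Usp28, a deubiquitinase, fell by 1.61 in WT. Quiescence and FOXO genes fell in 8 of 15 cases in each genotype and none rose, with a median of -1.05 in WT and -1.10 in KO cells. Klf2, a factor of resting T cells, differed by -3.55 in WT and -4.07 in KO cells, and Btg1 by -1.84 in both. Klf4 fell by at least 1.39 in WT cells, to a level at background. Of 18 p53 pathway genes 4 rose and 3 fell in WT, and 5 rose and 5 fell in KO cells. The list median was -0.25 in WT and -0.23 in KO cells, beside -0.02 and 0.02 over all genes. In WT cells Gtse1 rose by 2.37 and Phlda3 by 1.96. Gadd45a fell by at least 0.78 in WT cells, to a level at background, and Plk2 fell by 1.20. In none of the 10 lists was a gene called between KO and WT cells in either state. For KO minus WT all 11 proliferation markers lay above 0 in native cells (median 0.19), and 2 of 11 did in activated cells (median -0.03). The native mean of these markers was 7.67, 7.42 and 7.83 on KO arrays 1, 2 and 3. On WT arrays it was 7.53, 7.48 and 7.32, so at number 2 KO lay lower. For the interaction 0 of 11 lay above 0 (median -0.23). Of 19 E2F target genes 15 lay above 0 in native and 6 in activated cells. Over all genes 40.1% lay above 0 in native and 47.7% in activated cells. The cause was not tested.

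**Figure D5:**
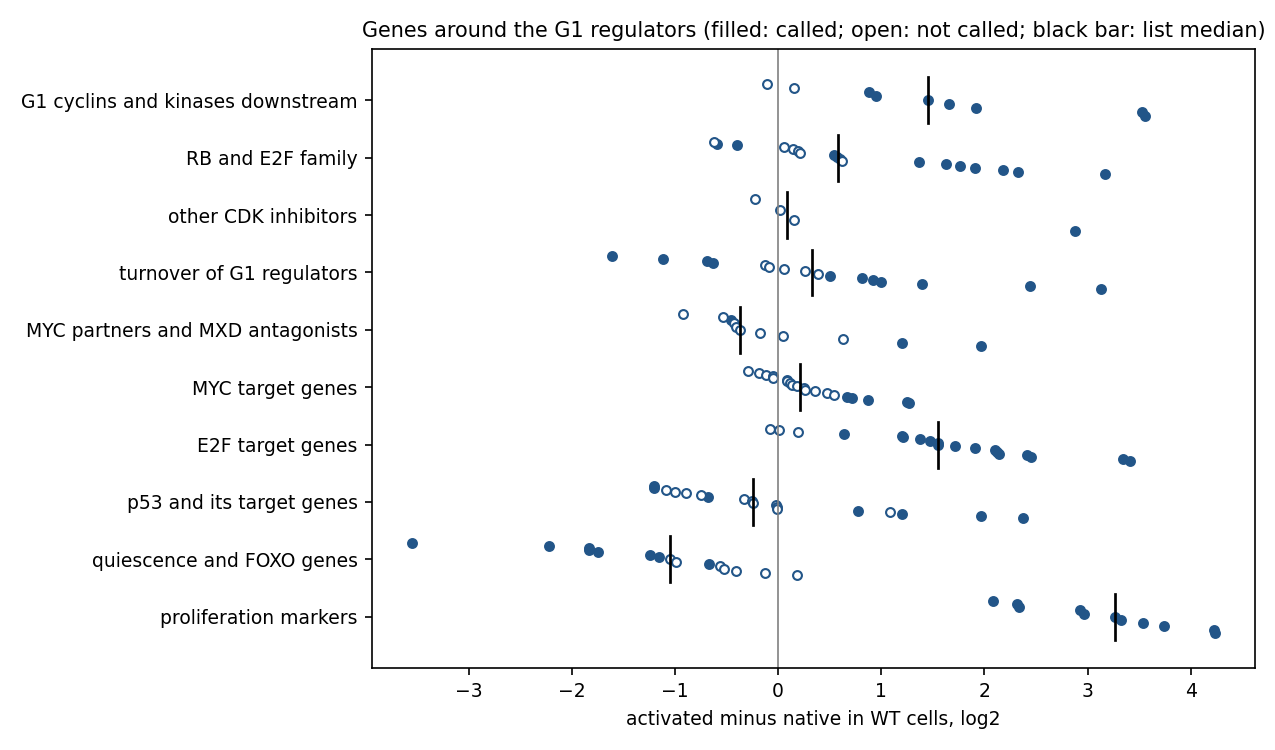
Activated minus native log2 difference in WT cells for every measured gene of the 10 lists (1 point per gene; filled points were called; black bars are list medians). Proliferation markers lie farthest above 0, quiescence and FOXO genes lie mostly below it, and the RB and E2F, turnover and p53 lists hold genes on both sides.

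The genes most like each member were taken as those with the smallest root mean square difference over the 12 arrays, after each gene was centred on its own mean, among 11331 genes above background in at least 1 group. For Cdk4 these were Cbx3, a heterochromatin protein (0.07 log2 units), and Calm3, a calmodulin gene (0.08), where the median over all candidates was 0.57. For Cdk6 they were Psat1, an enzyme of serine synthesis (0.12), and Adap1 (0.13), against a median of 1.20. Cdkn2c was nearest to Ccdc18 (0.14) and Ska1, a protein of the mitotic spindle attachment (0.15), against 0.89. Cdkn1b was nearest to Fbxl20 (0.12) and the DNA glycosylase Neil1 (0.13), against 0.65.

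Ccnd1 was nearest to Tm9sf3 (0.10) and Rcc2 (0.12), Ccnd2 to Trmt11 (0.11) and Slc25a42 (0.12), and Ccnd3 to Agpat1 and Gpr137 (both 0.10). Cdkn2d was nearest to Pfkfb4 (0.11) and Cep43 (0.12), and Myc to Ercc1 (0.11) and Ifi27 (0.12). For these 5 members, none of which was called, the median over candidates was between 0.34 and 0.40. Among the members themselves the closest were Cdkn2d and Myc (0.21), then Ccnd2 and Ccnd3 (0.23), whereas Cdk6 was 0.51 from its nearest member, Cdkn2c, and Cdkn1b 0.65 from Myc.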

How the data were processed

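Total RNA was labelled for Affymetrix whole-transcript arrays, per the labels' protocols. The authors made the deposited table of log2 expression values (35556 transcript clusters, 12 arrays) with RMA in Partek, as the submitters' processing notes record. Their versions and options were not given in the sources used here. Background correction in RMA compresses differences near background. Rows with 1 platform symbol (21789) were named, with symbols checked through Entrez identifiers (21698 matched), and the brightest row was kept for 999 genes with several, which left 19938 genes. Rows with several symbols (1621) or none (12146) entered only the fit of all rows.

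Group means were fitted over all 12 arrays with limma 3.58.1 in R 4.3.3 (lmFit, eBayes), without a filter on dim genes. A gene was called at a Benjamini-Hochberg adjusted p under 0.05 over all 19938 genes. The fit was tested on simulated data with the same spread in every group, so that test did not cover unequal spreads or an outlying array. Groups shared 1 spread per gene, though the median SD of a gene ran from 0.0989 in native WT to 0.247 in activated KO. A difference with a group at background on all 3 arrays was given as a bound from the background level. In both states the descriptions give KO and WT arrays of a number the same experiment number. Correlations of same-numbered deviations were 0.58, 0.396 and 0.157 in native cells, where the highest with another number were -0.206, 0.0525 and 0.13. In activated cells they were 0.694, -0.0166 and -0.013, where the highest with another number were 0.0992, 0.279 and 0.116. The correlations thus hardly set native number 3 apart, and activated numbers 2 and 3 not at all. The alternatives were a replicate block by title or experiment number, a fit of only the groups compared, quantile normalization, array median centring, trended robust eBayes, array weights, the mean of a gene's rows, a fit of all rows, a filter on dim genes and leaving out each array. From each list up to 4 genes were picked by a rule. These were the largest rise and fall called in WT without overlap of groups, then the next largest. The text names some of the genes picked. The members and lists were chosen with earlier results of these data known. The number of arrays limits the precision.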

Additional observations from a re-analysis of the deposited data

How the results depend on the processing

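Cdk4, Cdk6 and Cdkn2c kept their calls and direction on activation under every alternative run, and the shared row under those run for it (the replicate block, quantile normalization, median centring, array weights and leaving out each array). Each array was left out in turn, and a comparison was read only without arrays of its own groups. WT activation was thus not read without a KO array, nor KO activation without a WT array. The count of members called stayed at 3 in WT and ran from 3 to 4 in KO cells, where Cdkn1b was added (-1.44 without activated KO array 2). It stayed at 0 for both genotype comparisons and the interaction. Array weights raised the count to 6 in WT, with Ccnd1 (0.46), Cdkn1b (-0.85) and Myc (0.48) added, and to 4 in KO cells; the usual fit of the weights did not converge, so they were estimated gene by gene. A fit of only the groups compared called 4 in WT, with Cdkn1b added. Over all genes, calls in WT were 4107, or 6930 with array weights and 7687 over all rows; in KO cells they were 4002, or 6932, 7526 and, without both KO arrays of number 1 (an alternative chosen after seeing the data), 2190. With the replicate block the count of members called was 3 in WT, 3 in KO and 0 in the other comparisons; the block added the call of the dimmer Cdkn1b row in KO cells (adjusted p = 0.0338 by limma) and changed no other call of a member.

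Signs turned only in differences that were not called, and the cause was not tested. With quantile normalization Cdkn2c differed by -0.0083 between native and 0.023 between activated genotypes, with an interaction of 0.032, and with array median centring by -0.022 in native cells. With array weights Myc lay at 0.24 in KO activation, Cdkn2c was -0.034 in native and 0.17 in activated genotypes, Cdkn1b was 0.22 in activated genotypes, and the interactions were -0.20 for Cdk6, 0.30 for Cdkn1b and 0.20 for Cdkn2c. Without the KO arrays of number 1, Cdkn2d activation in KO was -0.15, native genotype differences were -0.0031 for Ccnd1, -0.11 for Ccnd3 and -0.046 for Cdkn2c, and interactions were 0.11 for Ccnd2, 0.017 for Ccnd3 and -0.050 for Cdk6.

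Leaving out each array turned signs within these ranges. In KO activation they were Ccnd3 -0.062 to 0.19, Cdkn2d -0.12 to 0.31 and Myc -0.33 to 0.20. Between native genotypes they were Ccnd1 -0.00307 to 0.22, Ccnd2 -0.19 to 0.11, Ccnd3 -0.11 to 0.15, Cdk4 -0.0186 to 0.11, Cdkn2c -0.0732 to 0.10 and Cdkn2d -0.0404 to 0.24. Between activated genotypes they were Ccnd1 -0.26 to 0.15, Ccnd2 -0.15 to 0.0566, Ccnd3 -0.17 to 0.058, Cdk4 -0.13 to 0.0395, Cdk6 -0.34 to 0.23, Cdkn1b -0.81 to 0.31, Cdkn2c -0.17 to 0.24 and Cdkn2d -0.31 to 0.13. For the interaction they were Ccnd1 -0.35 to 0.0616, Ccnd2 -0.19 to 0.12, Ccnd3 -0.23 to 0.0287, Cdk6 -0.28 to 0.30, Cdkn1b -0.73 to 0.39, Cdkn2c -0.18 to 0.24 and Cdkn2d -0.41 to 0.0287. With 3 arrays a group, signal near background limits Ccnd1, Cdkn2d and the native shared row.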
